A study of Drosophila melanogaster with 2 samples.

Results

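The regions described here are the strong peaks that 1 replicate of an embryo ChIP-seq experiment held without the other. The strong list of each replicate was cut at the length of the deposited list of reproducible peaks, and 1611 of the strong peaks of replicate 2 overlapped, by 1 bp or more, no strong peak of replicate 1. That is 36.5% of the strong list (95% Clopper-Pearson interval 35.1 to 38.0%). They were chosen by the deposited signal values of both libraries, so their strength in either replicate is a description and carries no test. The other 2799 strong replicate 2 peaks, called shared peaks below, serve as the comparison, and the 1665 strong peaks of replicate 1 only as a second one.

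The 2 biological replicates are ChIP-seq libraries (chromatin immunoprecipitation followed by sequencing) of whole Drosophila melanogaster embryos aged 0 to 24 h, with the sexes pooled. Both come from the same transgenic line, which makes CG7987 with GFP on its C-terminus, and the labels name no treatment and no second genotype. The age range spans all of embryogenesis, so a site bound in few cells and a site bound weakly in many cannot be told apart. The assay and antibody labels describe ChIP for CG7987, whereas a free-text line describes an input control, and no value below tests which holds.

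In ChIP-seq, chromatin is sheared, the fragments bound by a protein are pulled down with an antibody, and places where sequenced fragments pile up are called as peaks. The position of highest pile-up, the summit, lies close to where the protein contacts DNA, directly or through partners. Fly promoters and enhancers are open chromatin and give peaks for many factors. The irreproducible discovery rate (IDR) is a measure computed from how alike peak ranks are between replicates, and a threshold on it gives a list of reproducible peaks.

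The strongest replicate 2 only peaks lay over DNA rich in A and T. The 50 bp to each side of 6 of their summits are printed below because they show this, each from the plus strand of the RefSeq dm6 genome. Capitals mark the 5 words of 6 bases that most separated these peaks from the shared ones, in either orientation, and the words TATAAA and TAATTA. The windows are chr2L:20085190-20085290 for fok, chr2L:4945458-4945558 for betaggt-I, chrX:523465-523565 for elav, chr3R:16224466-16224566 for lncRNA:CR45643, chr3R:15275311-15275411 for Cp190 and chr2L:19423715-19423815 for Pax. Their GC shares ran from 20.8% at Cp190 to 35.6% at fok, and 2 further windows near lncRNA:CR45695 that also held such a word had 31.7 and 37.6%.
fok: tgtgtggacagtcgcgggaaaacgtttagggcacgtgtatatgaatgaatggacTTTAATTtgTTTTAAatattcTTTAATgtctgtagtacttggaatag
betaggt-I: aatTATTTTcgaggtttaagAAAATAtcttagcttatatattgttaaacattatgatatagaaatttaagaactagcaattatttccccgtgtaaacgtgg
elav: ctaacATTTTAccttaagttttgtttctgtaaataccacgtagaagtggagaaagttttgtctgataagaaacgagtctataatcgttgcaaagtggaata
lncRNA:CR45643: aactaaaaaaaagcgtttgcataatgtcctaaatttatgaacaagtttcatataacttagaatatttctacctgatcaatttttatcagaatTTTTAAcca
Cp190: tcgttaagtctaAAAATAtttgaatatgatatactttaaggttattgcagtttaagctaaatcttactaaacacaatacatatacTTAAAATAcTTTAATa
Pax: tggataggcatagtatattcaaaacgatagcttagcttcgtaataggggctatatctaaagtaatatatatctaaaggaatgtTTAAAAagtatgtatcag

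Not every strong replicate 2 only peak held such a word. The 4 strongest eligible members without one lay at nrv1 (chr2L:6787031-6787131, GC share 31.7%, and chr2L:6787231-6787331, 42.6%), lncRNA:Hsromega (chr3R:21296374-21296474, 40.6%) and CHES-1-like (chrX:7705593-7705693, 36.6%). For contrast, the strongest shared peak, next to cbt (chr2L:481244-481344), had a GC share of 51.5%. The strongest replicate 1 only peak, upstream of lncRNA:CR31840 (chr2L:14024505-14024605), had 53.5%. These 2 windows from the comparison sets were chosen after their values were seen and do not stand for their sets. Windows not printed had 60.4% at another shared peak near cbt, and 54.5% at msi and 43.6% at CG9674, both replicate 1 only. Over 100 bp to each side, shared peaks with a signal of 305 to 6853 had a median of 39.3%. Replicate 2 only peaks in that signal range had 31.3%.
nrv1, first window: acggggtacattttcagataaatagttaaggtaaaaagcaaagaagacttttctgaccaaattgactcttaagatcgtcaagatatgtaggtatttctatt
nrv1, second window: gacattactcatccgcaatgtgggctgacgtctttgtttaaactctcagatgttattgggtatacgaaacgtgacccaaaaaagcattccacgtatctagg
lncRNA:Hsromega: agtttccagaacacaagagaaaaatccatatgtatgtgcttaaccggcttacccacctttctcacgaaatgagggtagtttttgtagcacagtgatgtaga
CHES-1-like: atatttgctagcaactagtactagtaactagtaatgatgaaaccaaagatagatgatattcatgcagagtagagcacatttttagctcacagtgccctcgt
cbt: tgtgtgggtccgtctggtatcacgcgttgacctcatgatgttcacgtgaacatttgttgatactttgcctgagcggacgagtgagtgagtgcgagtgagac
lncRNA:CR31840: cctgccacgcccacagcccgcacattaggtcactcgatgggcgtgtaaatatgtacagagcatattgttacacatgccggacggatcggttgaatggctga

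The replicate 2 only peaks were the weaker part of the strong list. Their signal, the authors' own peak strength in units that the sources used here do not state, ran from 95.9 to 459 with a median of 120.4. Shared peaks had a median of 159.8 and reached 6853. Among the 1000 strongest replicate 2 peaks, 122 were replicate 2 only, which is 7.57% of the set, against 31.4% of the shared peaks. When the strong list was cut into 10 bands of equal size by signal, the replicate 2 only share was 4.76% in the strongest band and 57.8% in the weakest. The last members inside the list ranked 4404 and 4407 and its final place, all with a signal of 95.9, and the first 3 peaks without overlap outside it ranked 4412, 4413 and 4414 with 95.9, 95.9 and 95.8.

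Most replicate 2 only peaks were also candidates in replicate 1, at a lower rank. Each replicate's list holds 30000 candidates, and 19815 of those in replicate 2 overlapped at least 1 replicate 1 candidate. Of the 1611 members, 1462 (90.8%, interval 89.2 to 92.1%) overlapped such a candidate. The best such candidate ranked from 4417 to 29971 in replicate 1 with a median of 7819, where the members themselves had a median rank of 2940 in replicate 2. For 858 members (53.3%) the replicate 1 rank lay past the strong list but within 2 times its length, and for 604 (37.5%) it lay further down. The members nearest to the threshold from outside ranked 4417, 4418 and 4419 in replicate 1 with a signal of 49.5, and the shared peaks nearest to it from inside ranked 4406, 4407 and 4409 with 49.6.

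**Figure D1:**
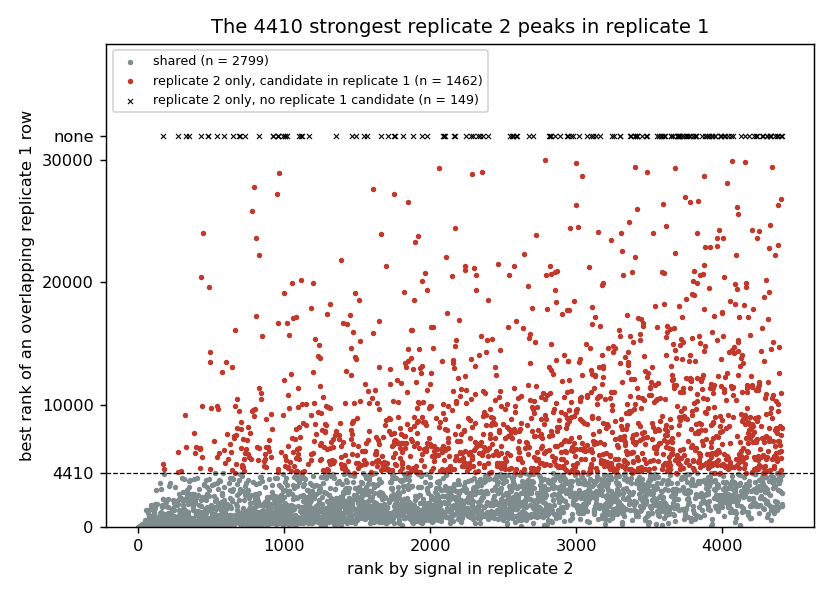
The strong replicate 2 peaks by their signal rank in replicate 2 (x axis) and the best rank of a replicate 1 candidate that overlaps them (y axis), with the 2799 shared peaks in grey, the 1462 replicate 2 only peaks with a replicate 1 candidate in red and the 149 without one as crosses at the top. The dashed line at the end of the strong replicate 1 list is the rule that separates the sets, so the gap between the colours is set by the choice. The red points are densest just above it.

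The remaining 149 members (9.25%, interval 7.88 to 10.8%) overlapped no replicate 1 candidate. The share in the other direction was similar, with 174 of the replicate 1 only peaks (10.5%) overlapping no replicate 2 candidate. A missing overlap did not always mean an empty locus. Of the 149, 18 had a replicate 1 summit within 250 bp, 53 within 500 bp and 83 within 1000 bp. At Pax, the gene of the focal adhesion protein paxillin, the nearest replicate 1 summit ranked 611 and lay 227 bp away. At fok it ranked 896 and lay 143 bp away. By contrast, no replicate 1 summit was found within 24325 bp of the member upstream of CG32115, which ranked 345 in replicate 2. Over all 1611 members, 1447 (89.8%) had a replicate 1 summit within 250 bp, and for 27 of them (1.68%) such a summit was in the strong list of replicate 1.

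The pooled data kept most of the replicate 2 only peaks. Of the 1611, 1574 (97.7%) overlapped a candidate called on both replicates together, and 1091 (67.7%) overlapped an IDR peak. The IDR list was derived from these same libraries, and the corresponding shares were 98.0% of shared peaks and 29.8% of replicate 1 only peaks. Overlap with an IDR peak does not show that a member ranked alike in both replicates. Of the 149 members without an overlapping replicate 1 candidate, 50 overlapped an IDR peak. The 1091 members in the IDR list had a median signal of 136 and a median replicate 1 rank of 6992 over the 1041 with a candidate there. The 520 outside it had a median signal of 105 and a median replicate 1 rank of 10765 over 421. Their GC shares were close, with medians of 36.3% and 36.8%.

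The clearest property of these peaks that the choice did not use was their base composition. Over the 100 bp to each side of the summit, replicate 2 only peaks had a median GC share of 36.3% (quartiles 32.3 and 41.8%). Shared peaks had 42.3% (36.8 and 47.8%), the same as the median of tiles of that length taken along the chromosome arms, and replicate 1 only peaks had 46.8% (42.8 and 50.7%). The distributions overlapped widely, with a range of 19.9 to 63.2% in the replicate 2 only peaks. The lists of the replicates also differed as wholes. Over all candidates the median was 42.8% in replicate 2 and 46.3% in replicate 1, and over the strong lists 40.3% and 45.3%. The members thus lay below the median of all candidates of their replicate, and the replicate 1 only peaks near that of theirs. The order of the 3 sets was the same within each main class of location: 36.3, 42.8 and 47.3% at promoters, 36.8, 41.3 and 46.8% in introns, and 36.8, 41.8 and 45.8% between genes. On each of the 5 large chromosome arms the members' median lay between 35.8 and 37.3%, below that of the shared peaks on the same arm.

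**Figure D2:**
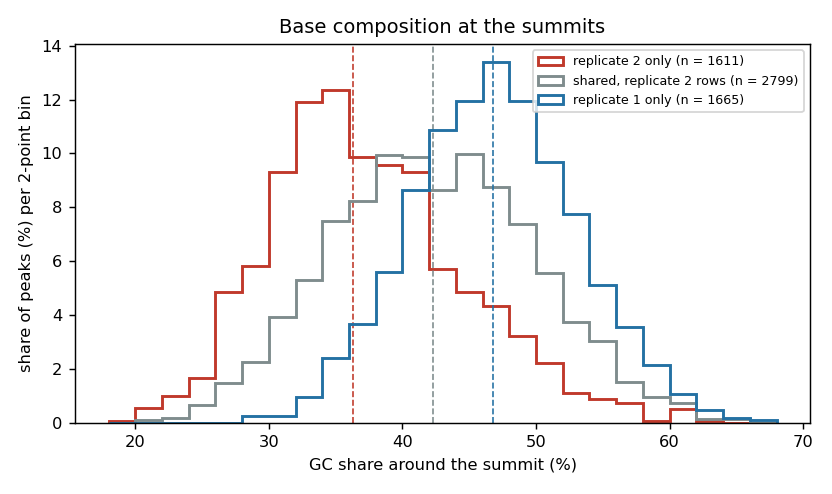
Share of peaks (y axis, %) by GC share of the summit base and 100 bp to each side (x axis, %) for 1611 replicate 2 only, 2799 shared and 1665 replicate 1 only peaks, with dashed lines at the medians of 36.3, 42.3 and 46.8%. The red curve lies left of the grey one and the blue curve right of it, and all 3 overlap.

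The share of replicate 2 only peaks fell across the GC range. When the strong replicate 2 list was cut into 10 bands of 441 by GC share, 58.7% (interval 54.0 to 63.4%) of the lowest band, up to 30.8% GC, were replicate 2 only. In the highest band, from 50.7% GC, the share was 17.5% (14.0 to 21.3%). Between them it went down at each step. In promoters the lowest and the highest band gave 56.5% and 15.6%, in introns 66.4% and 24.6%, and between genes 14 of 28 and 5 of 41 peaks. Replicate 1 gave the opposite slope: the replicate 1 only share of its strong list was 14.5% in the lowest GC band and 49.9% in the highest, after 51.9% in the eighth of the 10.

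**Figure D3:**
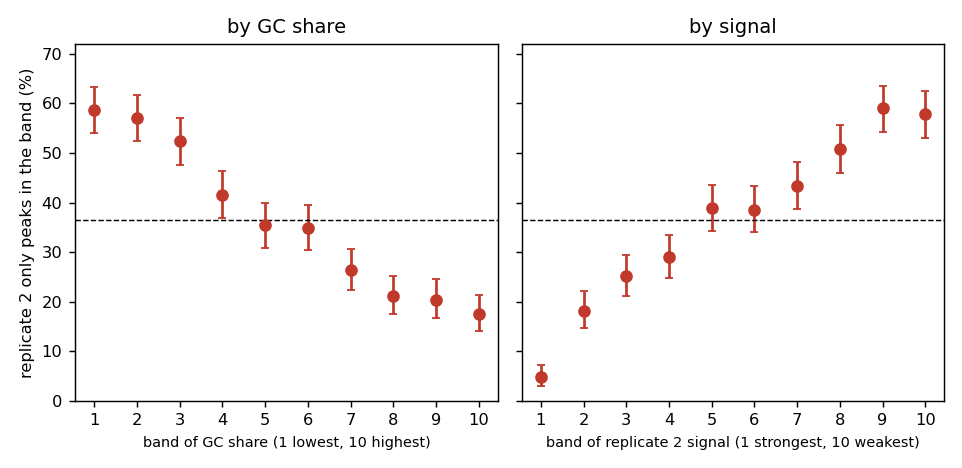
Share of replicate 2 only peaks (y axis, %) in 10 bands of 441 peaks each, by GC share of the summit region (left) and by replicate 2 signal (right), with 95% Clopper-Pearson intervals that cover counting error only and a dashed line at 36.5%. The share ran from 58.7% to 17.5% along the GC bands and from 4.76% to 57.8% along the signal bands, the latter set in part by the choice of the peaks.

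The difference in composition from the shared peaks was present at each level of signal. In the strongest of the 10 signal bands, 21 replicate 2 only peaks had a median GC share of 31.3% against 39.3% in the shared peaks. In the weakest band, 255 had 39.3% against 43.8%. In the 8 bands between, the members' median was also the lower. Below the strong lists the direction was the same but the gap to matched candidates was smaller in replicate 2: candidates of replicate 2 with no overlap in replicate 1 had a median of 42.3% and those with one 43.8%. In replicate 1 the unmatched candidates had 48.8% and the matched ones 44.8%.

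The ranks of sites found in both replicates moved with GC share as well. Across the 19815 replicate 2 candidates that overlapped a replicate 1 candidate, Spearman's rho between GC share and the log10 ratio of replicate 1 rank to replicate 2 rank was -0.265, which means that AT-rich sites ranked relatively higher in replicate 2. Within the 2799 shared peaks it was -0.449, and within the 13195 sites strong in neither replicate it was -0.163. These are descriptions across sites that share 2 libraries. Library GC content, fragment length and read depth were not analysed here, and their part in the difference between the replicates was not tested.

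Replicate 2 only peaks sat at promoters slightly less often than shared peaks and in introns slightly more often, but both directions depended on where the list was ended. With strong lists 0.5 times as long the odds ratios were 1.06 and 0.979, and with the 149 members without a replicate 1 candidate 1.15 and 0.716, none of them called. A summit within 500 bp of an annotated transcription start site (TSS) counts as promoter here. Shares were compared by Fisher's exact test, and an adjusted exact p below is its p after Benjamini-Hochberg adjustment over the 7 classes, at a threshold of 0.05. Promoters held 868 members (53.9%) against 57.8% of shared peaks, an odds ratio of 0.854 (95% interval 0.753 to 0.968, adjusted exact p = 0.0446). Introns held 549 members (34.1%) against 30.0%, an odds ratio of 1.21 (1.06 to 1.38, adjusted exact p = 0.0365). Between genes the shares were 9.81 and 9.22% (odds ratio 1.07, 0.864 to 1.32, adjusted exact p = 0.521), and coding exons held 1 member against 13 shared peaks (adjusted exact p = 0.0558). With strong lists 2 times as long, promoters (odds ratio 0.613, adjusted exact p = 6.41e-26) and introns (1.38, adjusted exact p = 5.34e-11) were called in the same directions. The intergenic odds ratio was then 1.58 and was also called (adjusted exact p = 9.40e-10). A promoter window of 250 bp gave 0.779 for promoters (adjusted exact p = 4.91e-04). Coding exons were called with a reciprocal overlap of 50% (odds ratio 0.160, adjusted exact p = 0.0202) and within signal bands (0.0843, adjusted chi-square p = 0.0320). Each p here compares lists of peaks from 1 library per replicate and says nothing about further embryo collections, since peaks of a library are not independent.

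Within GC bands the small class differences from the shared peaks kept nearly the same odds ratios but were no longer called. An adjusted chi-square p below comes from a Mantel-Haenszel test within bands, which compares only peaks of like GC share or signal, and the GC bands were chosen after the GC shares were seen. Within GC bands the promoter odds ratio was 0.857 (adjusted chi-square p = 0.0701) and the intron one 1.19 (adjusted chi-square p = 0.0701). Within signal bands the promoter value was 0.872 (adjusted chi-square p = 0.0984) and the intron value stayed past the threshold at 1.21 (adjusted chi-square p = 0.0320). Against the replicate 1 only peaks the differences were larger and stayed within GC bands: promoters held 61.6% of those (odds ratio 0.728, adjusted exact p = 2.86e-05, within GC bands 0.704 with adjusted chi-square p = 3.08e-04), and introns 26.6% (odds ratio 1.43, adjusted exact p = 2.41e-05, within GC bands 1.46 with adjusted chi-square p = 3.08e-04).

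At promoters, the replicate 2 only summits lay further upstream. Their median position in promoter windows was 71 bp upstream of the nearest TSS, against 39 bp upstream for shared summits and 0 for replicate 1 only summits. Of the 868, 643 (74.1%) were upstream, against 67.4% of 1617 shared summits (Fisher's exact test, odds ratio 1.38, adjusted exact p = 5.88e-04) and 49.4% of 1026 replicate 1 only summits (odds ratio 2.93, adjusted exact p = 2.90e-28). Within 100 bp of the TSS lay 51.5%, against 61.3% (odds ratio 0.669, adjusted exact p = 5.40e-06) and 78.7% (odds ratio 0.288, adjusted exact p = 2.35e-35). These position tests were added after the values were seen. Members and shared peaks were placed by replicate 2 summits, and replicate 1 only peaks by replicate 1 summits. The standard interval widths of these lists were 404 and 260 bp. In the comparison with replicate 1 only peaks, a shift between the summits of the 2 libraries cannot be told apart from a difference between the sites.

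The position difference from the shared peaks went together with GC share. Within GC bands the upstream odds ratio against shared summits turned to 0.870 (adjusted chi-square p = 0.356) and the one for 100 bp was 0.922 (adjusted chi-square p = 0.368). Against replicate 1 only summits, which come from the other library, both stayed past the threshold within GC bands, at 1.34 (adjusted chi-square p = 0.0175) and 0.343 (adjusted chi-square p = 5.40e-16). Nearly all promoter summits were nearest to a protein-coding gene, 93.1% of members and 93.6% of shared peaks.

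**Figure D4:**
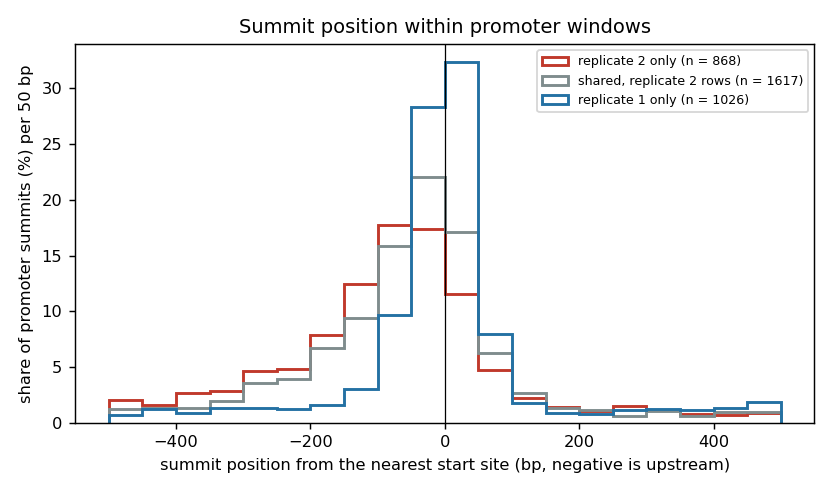
Position of promoter summits from the nearest TSS (x axis, bp, negative is upstream) as a share of each set per 50 bp (y axis, %), for 868 replicate 2 only, 1617 shared and 1026 replicate 1 only summits. The replicate 1 only summits pile up at the start site, with a median of 0, and the replicate 2 only summits are spread upstream of it, with a median of -71 bp.

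Replicate 2 only peaks were mostly isolated. The 1611 formed 1574 separate loci, of which 37 held 2 overlapping members, so members of a pair share their source. Another strong replicate 2 summit lay within 1 kb of 15.3% of members, against 20.3% of shared peaks, and a shared summit lay within 1 kb of 120 members (7.45%). Their intervals had the standard width of the list, 404 bp, in 84.6% of cases against 54.3%. In the replicate 1 list the standard width was 260 bp, so the overlap rule compared intervals of unequal width.

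By chromosome, the replicate 2 only peaks were more often on X and less often on 2R than the shared peaks. Of all 30000 replicate 2 candidates, 16.2% were on X and 19.3% on 2R. On X the members were near the share of all candidates and the shared peaks below it. X held 257 (16.0%) against 12.6%, an odds ratio of 1.32 (1.10 to 1.58) by Fisher's exact test adjusted over 6 arms (adjusted exact p = 0.00611). The odds ratio was 1.33 within GC bands (adjusted chi-square p = 0.0127) and 1.40 within bands of both GC share and signal (adjusted chi-square p = 0.00774). On 2R lay 272 (16.9%) against 21.7%, an odds ratio of 0.734 (0.624 to 0.862, adjusted exact p = 7.40e-04), which within GC bands was 0.794 (adjusted chi-square p = 0.0207). Both calls were lost with strong lists 0.5 times as long (X 1.32 and 2R 0.756, adjusted exact p = 0.0756 for each) and with the 149 members without a replicate 1 candidate (X 1.20, adjusted exact p = 0.537, and 2R 0.693, adjusted exact p = 0.185). No call was made on 2L, 3L or 3R. Against replicate 1 only peaks, X gave 13.9% and an odds ratio of 1.18 (0.967 to 1.44, adjusted exact p = 0.143), and 2R gave 22.9% and 0.682 (adjusted exact p = 8.87e-05).

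Chromosome 4, the short and largely heterochromatic chromosome, was covered unevenly by the replicates. Its sequence has a GC share of 35.2%, and its candidates numbered 148 in replicate 2 and 41 in replicate 1. Of the strong peaks, 9 were replicate 2 only and 0 of 1665 were replicate 1 only, a count that allows a share of up to 0.221% (Fisher's exact test, adjusted exact p = 0.00499, within GC bands adjusted chi-square p = 0.194). Against the shared peaks, 11 of which were on chromosome 4, no difference was called (odds ratio 1.42, 0.520 to 3.79, adjusted exact p = 0.529), and that interval spans differences in either direction. Chromosome 4 was called with strong lists 2 times as long (odds ratio 4.03, adjusted exact p = 2.15e-04) and for the 149 members without a replicate 1 candidate (12.5, adjusted exact p = 8.74e-05). The odds ratio was 0.991 with lists 0.5 times as long and 0.790 with a reciprocal overlap of 50%, neither called.

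The 9 chromosome 4 members lay at developmental regulators and other genes. The strongest ranked 480, in a region annotated to Cals, which encodes calsyntenin, and to sv, which encodes a Pax2 factor, and another at Cals ranked 953. Promoter members lay at PlexA, a semaphorin receptor gene (rank 1510), at gw, which encodes the GW182 protein of microRNA silencing (rank 1713), at pan, the TCF factor of Wnt signalling (rank 2326), at Sox102F (rank 2565), at ey, the fly Pax6 gene (rank 3649), and at apolpp, the lipophorin precursor gene (the last rank of the strong list). The member near ci, the transcription factor of Hedgehog signalling, ranked 2506 in replicate 2 and 5127 in replicate 1. Apart from ci and PlexA, whose replicate 1 rank was 18589, none of the 9 overlapped a replicate 1 candidate. Among those 7 the nearest replicate 1 summit was 359 bp away at Sox102F, where it ranked 9093, and 1084 bp away at pan. At apolpp it was 33866 bp away, at the Cals members 83762 and 84009 bp, at ey 99729 bp and at gw 137279 bp.

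The 149 members without an overlapping replicate 1 candidate, 7 of them on chromosome 4, were a little more AT-rich than the others. Their median GC share was 34.3% against 36.8%, and 61.1% of them were at promoters and 23.5% in introns, against 53.1 and 35.2%. Their median signal, 116 against 121, was close to that of the other members. The IDR list held 50 of them (33.6%) against 71.2%.

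Among 20 sequence motifs of known factors, searched on both strands within 50 bp of the summit, 2 were found more often in replicate 2 only peaks than in shared ones and 5 less often by Fisher's exact test (adjusted over the 20). TATAAA, the TATA box, stood in 17.2% of members, 10.7% of shared peaks and 6.61% of replicate 1 only peaks (against shared peaks odds ratio 1.73, adjusted exact p = 2.90e-08). TAATTA, a core bound by homeodomain proteins, stood in 8.50, 4.89 and 2.10% (odds ratio 1.81, adjusted exact p = 2.76e-05). Over all arms in tiles of the same length the shares were 11.7% for TATAAA and 6.47% for TAATTA. Within GC bands neither passed the threshold, with odds ratios of 1.10 and 1.18 (adjusted chi-square p = 0.680 for both).

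The 1 motif still called within GC bands was TGTTTAC, the core bound by fork head proteins. It stood in 63 members (3.91%) against 6.82% of shared peaks, an odds ratio of 0.556 (0.408 to 0.748, adjusted exact p = 3.48e-04). The odds ratio was 0.573 within GC bands (adjusted chi-square p = 0.00341) and 0.596 within bands of GC share and signal (adjusted chi-square p = 0.0325). Replicate 1 only peaks held it in 4.08% (odds ratio 0.956, 0.663 to 1.38, adjusted exact p = 0.954), all replicate 2 candidates in 3.68%, and the tiles of the arms in 1.89%. With strong lists 2 times as long in both replicates, the odds ratio was 0.813 and the call was lost (adjusted exact p = 0.0918), as it was for the 149 members without a replicate 1 candidate (0.474, adjusted exact p = 0.504).

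The other 4 motifs that were rarer in replicate 2 only peaks did not pass the threshold within GC bands, where the adjusted chi-square p was 0.532 for GAGAGAG and 0.680 for the rest. GAGAGAG, bound by GAGA factor, stood in 1.43% against 3.32% of shared peaks and 1.24% of tiles. GGGCGG, bound by factors of the Sp/KLF family, stood in 1.74% against 3.50%, with 3.52% of tiles. CACGTG, an E-box, stood in 1.68% against 3.22%, with 1.17% of tiles, and AGGNGGC, the core of the CTCF motif, in 2.67% against 4.36%, with 3.98% of tiles.

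The 13 other motifs were not called against shared peaks by Fisher's exact test. Within signal bands 3 of them were called lower: GGTCACACT (odds ratio 0.414, adjusted chi-square p = 0.00234), CAGCTG (0.626, adjusted chi-square p = 0.00359) and CACACACA (0.598, adjusted chi-square p = 0.0172). Within GC bands the odds ratios of these 3 were 0.787, 0.995 and 1.20, none called. Against replicate 1 only peaks these 3 and TCAGTT were called lower by Fisher's exact test (odds ratios 0.487, 0.539, 0.376 and 0.707), and none of the 4 within GC bands. TATCGATA, bound by DREF, stood in 2.67% of members and 2.68% of shared peaks (odds ratio 0.996, 0.665 to 1.48, adjusted exact p = 1.00), against 0.275% of tiles. CGATA, the core bound by BEAF-32, which lies within TATCGATA, stood in 19.7 and 20.1% (odds ratio 0.977, 0.835 to 1.14). The E-box CAGCTG stood in 5.28 and 6.75% (adjusted exact p = 0.130), with 9.37% of replicate 1 only peaks (adjusted exact p = 2.24e-05), and GATAAG, bound by GATA factors, in 7.32 and 8.18% (adjusted exact p = 0.463). The remaining ones are GGTCACACT (core promoter motif 1) at 1.30 and 1.96%, CACACACA (a CA repeat) at 2.55 and 3.54%, CAGGTAG (Zelda) at 0.497 and 0.357%, TCAGTT (the initiator) at 7.08 and 6.65%, and TTTATGGC (Caudal and Abd-B) at 0.621 and 1.11%. GTGGGAA (Su(H)) stood in 0.683 and 1.18%, TGANTCA (AP-1) in 2.86 and 2.22%, TGACGTCA (CREB) in 0.248 and 0.322%, and CCGGAAGT (Ets) in 5 members and 14 shared peaks. Their shares of the tiles ran from 0.0975% for GGTCACACT to 6.32% for TCAGTT.

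Among all words of 6 bases, each counted with its reverse complement, 220 (10.6%) were found in more replicate 2 only peaks than shared peaks and 294 (14.1%) in fewer (Fisher's exact test, adjusted over all words). The split followed composition. Of 228 words with at most 1 G or C, 157 were higher and 0 lower, and of 228 with at least 5, 111 were lower and 0 higher. The words that led were TTAAAA, in 26.6% of members against 14.3% of shared peaks (odds ratio 2.18, adjusted exact p = 7.10e-20), then ATTAAA with 23.5 and 12.6%, ATTTTA with 25.1 and 14.3%, AATTAA with 20.2 and 11.4% and AAAATA with 31.2 and 20.7%. In the tiles of the arms TTAAAA stood in 16.3%.

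Within GC bands only 1 word (0.0481%) was higher and 4 (0.192%) lower, while 191 of all words had an unadjusted p under 0.05. All 4 lower words hold the letters TGGCG on 1 of the strands. GCGCCA stood in 2.86% of members against 8.22% of shared peaks (odds ratio within GC bands 0.426, adjusted chi-square p = 2.51e-04), and the tiles held it in 3.86%. CGCCAC stood in 1.92 against 6.43% (0.412, adjusted chi-square p = 0.00384), CGCCAG in 1.61 against 5.86% (0.398, adjusted chi-square p = 0.00905) and ATGGCG in 2.86 against 6.36% (0.521, adjusted chi-square p = 0.0385). The 1 higher word was AGGTGC, in 3.35 against 2.00% (2.22, adjusted chi-square p = 0.0385). The tiles held AGGTGC in 3.08% and all replicate 2 candidates in 2.79%, so the members were near these shares and the shared peaks below them. Within bands of both GC share and signal 7 words were higher and 6 lower, with GCGCCA again among the latter (0.375, adjusted chi-square p = 4.05e-05) and TTAAAA among the former (1.52, adjusted chi-square p = 0.00574). The remaining 2 of the 5 leading lower words, GAGCGC with 1.68 and 5.11% and CGCAGC with 3.29 and 7.32%, did not pass within GC bands (adjusted chi-square p = 0.189 and 0.429).

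**Figure D5:**
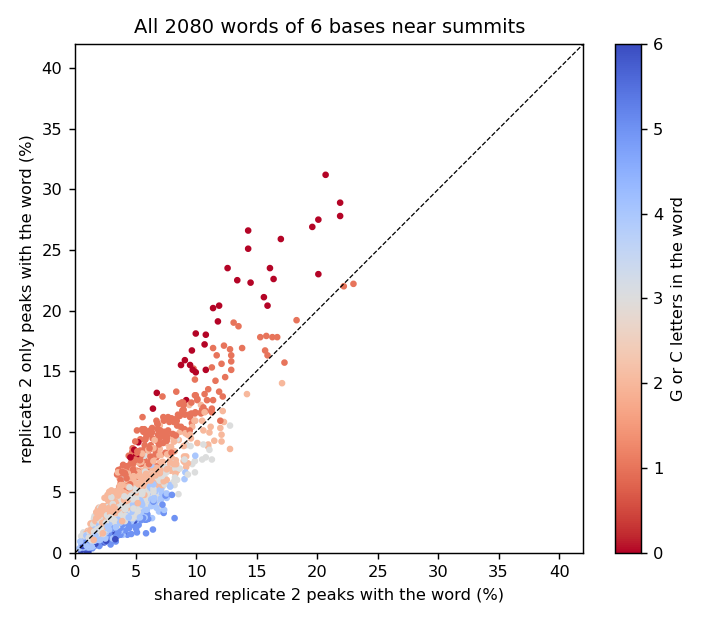
Share of peaks that hold each word of 6 bases within 50 bp of the summit, in 2799 shared peaks (x axis, %) and 1611 replicate 2 only peaks (y axis, %), coloured by the number of G or C letters in the word. Words of A and T lie above the dashed line of equal shares and words rich in G and C below it.

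Against the replicate 1 only peaks the words separated further, with 410 (19.7%) higher and 674 (32.4%) lower in replicate 2 only peaks. TTAAAA stood in 26.6% against 6.31% (odds ratio 5.39, adjusted exact p = 2.26e-55). ATTAAA gave 5.59% in the replicate 1 only peaks, ATTTTA 6.67%, AAATTA 5.41% and ATTTAA 5.47%, each against over 22% of members. CGAGCG, the lowest, stood in 1.99% of members against 10.2% (odds ratio 0.179, adjusted exact p = 2.83e-22), and CGCAGC in 3.29 against 11.8%, GAGCGC in 1.68 against 8.47%, GCGAGC in 2.73 against 9.61% and GAGCGA in 3.54 against 10.9%. Within GC bands 0 words passed in either direction by the Mantel-Haenszel test, while 273 had an unadjusted p under 0.05.

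The strongest replicate 2 only peaks lay at genes of many kinds. The first was 263 bp upstream of a start of Lpin, the phosphatidate phosphatase gene of fat storage, with a signal of 459 and rank 166 in replicate 2 and rank 5101 in replicate 1. A replicate 1 summit of rank 880 lay within 250 bp of it. Another was 71 bp upstream of betaggt-I, which encodes a subunit of geranylgeranyl transferase, with a signal of 379, rank 271 in replicate 2 and rank 6130 in replicate 1. The same summit lay 147 bp from the start of the mitochondrial ribosomal protein gene mRpL24. The peak 120 bp upstream of Cp190, whose product is a cofactor of insulator proteins, had a signal of 365, rank 289 and a replicate 1 rank of 4528.

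Of the 15 strongest, 11 overlapped a replicate 1 candidate. The peak 289 bp upstream of elav, the RNA-binding protein gene by which neurons are commonly recognised, lies inside arg, the arginase gene, and ranked 273 with a signal of 377. The best overlapping replicate 1 candidate ranked 4501, and the nearest replicate 1 summit, 44 bp away, ranked 20817, so the overlap was with a stronger neighbour. A pair of overlapping members between genes, 8466 and 8266 bp from lncRNA:CR45695, ranked 178 and 327, with replicate 1 ranks of 4766 and 6524. The other promoter members were at CG7183 (rank 318, replicate 1 rank 9166), CG2698 (rank 381, replicate 1 rank 7703), CG5953 (rank 395, replicate 1 rank 6541) and pre-mod(mdg4)-E inside the chromatin protein gene mod(mdg4) (rank 419, replicate 1 rank 6442). An intronic one lay in Tis11 (rank 387, replicate 1 rank 6044), whose product promotes decay of messenger RNAs with AU-rich elements. The 4 without an overlapping replicate 1 candidate were fok (rank 170, inside neb), lncRNA:CR45643 (rank 274, with a replicate 1 summit of rank 4642 at 290 bp), Pax (rank 329) and CG32115 (rank 345). All 15 overlapped an IDR peak, and their GC shares over 100 bp to each side ran from 23.9 to 40.3%.

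Over the annotation, 1131 of 13945 protein-coding genes (8.11%) had a replicate 2 only summit within 500 bp of a TSS, and 1832 (13.1%) had a shared one. Of the 1131, 1036 had no shared summit there. The counts for 20 gene lists are read against these shares and carry no test. A summit can count for several genes and can lie inside a neighbour.

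Few cytoplasmic ribosomal protein genes had a replicate 2 only peak, and most had a shared one: 2 of 92 (2.17%) had a member and 72 (78.3%) a shared summit. The member at RpL10 ranked 1494 in replicate 2 with a signal of 169.7 and overlapped neither a replicate 1 nor a pooled candidate, and the nearest replicate 1 summit was 147359 bp away. The member 288 bp from RpL34b ranked 2280 and had a replicate 1 summit of rank 99 at 221 bp. Mitochondrial ribosomal protein genes had a member at 10 of 73 (13.7%) and a shared summit at 16 (21.9%), with mRpL24, mRpL2 (signal 142) and mRpL21 (138) the strongest.

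Proteasome genes had a member at 5 of 48 (10.4%) and a shared summit at 2 (4.17%). The strongest were at Rpn6 (signal 185), Rpn3 (141) and Rpn5 (128), which encode parts of the regulatory particle, and their replicate 1 ranks were 7886, 14805 and 5316. Genes of oxidative phosphorylation had a member at 8 of 88 (9.09%) and a shared summit at 15 (17.0%), led by the complex I genes ND-MWFE (175), ND-51 (147) and ND-24 (134). Over all protein-coding genes with a member the median signal was 126, against 128 in both of these lists.

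Insulator and architectural protein genes had a member at 4 of 14 (28.6%) and a shared summit at 5 (35.7%). Besides Cp190, members lay at CTCF (signal 106) and pita (106), both genes of DNA-binding insulator proteins, with replicate 1 ranks of 6348 and 5315. Replication and cell cycle genes had a member at 6 of 30 and a shared summit at 5 (16.7%). These included CycA (145), the gene of cyclin A, dpa (138), which encodes a subunit of the MCM helicase, and E2f1 (120.4), the activating E2F factor. With 14 and 30 genes, 1 gene moves these shares by several points.

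Apart from the 96 cuticle genes, the lists of tissue and patterning genes are short, so that at the 8.11% of all protein-coding genes most would hold no more than 1 or 2 members. The neuronal list had 1 of 20, elav, and 0 shared, and the factors of neural specification had 0 of 18. Muscle structure genes had 2 of 14, the titin-like sls (signal 195) and the tropomyosin gene Tm1 (124), while 0 of 12 mesoderm regulators, 0 of 96 cuticle genes, 0 of 12 hemocyte genes, 0 of 11 germline genes and 0 of 8 Hox genes had one. Shared summits were also rare in the cuticle list, at 1 gene (1.04%) against 13.1% of all protein-coding genes. Gut genes had 3 of 7, the GATA factor genes grn (126) and GATAe (109) and the homeobox gene dve (100.1), the last 2 of which also had a shared summit. The tracheal list had 1 of 7, trh (218), a master regulator of tracheal fate.

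The other signalling and response lists held 1 member each. Of 20 segmentation genes it was hry, the pair-rule gene hairy (signal 169), 40 bp from a start. Of 16 signalling genes it was spi, the ligand of the epidermal growth factor receptor (305), which ranked 442 in replicate 2 and 24044 in replicate 1. The gene spi also had a shared summit within 500 bp of a TSS. Of 12 ecdysone response genes it was usp, the partner of the ecdysone receptor (158), with no overlapping replicate 1 candidate, whereas 8 of the 12 (66.7%) had a replicate 1 only summit, against 7.82% of all protein-coding genes. Of 15 heat shock genes it was the small heat shock protein gene Hsp26 (142), 16 bp from its start, with a replicate 1 rank of 4632.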

How the data were processed

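Peaks were called per replicate and on both replicates pooled, each against a control alignment, and an IDR list was derived from them, per the labels and the deposited readme texts, on dm6. The aligner, peak caller and cutoff were not given in the sources used here. For each peak the authors deposited a signal value, and the deposited −log10 q-value was tied at its maximum in many peaks, so signal, within each list only, set the ranks. The depth of the libraries is unknown, since no read counts were used, and intervals cover counting error over peaks only.

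The members, the gene lists and the motifs were chosen with earlier results of these data known. Tied signals kept file order, and the strong list of a replicate was as long as the IDR list. Overlap of 1 bp or more separated the sets, 1 row per deposited summit. Replicate 1 rank means the best rank of any overlapping replicate 1 candidate, which may be a neighbour. Summits were set against Ensembl 115 annotation of BDGP 6.54, from which transposable elements were left out, and the RefSeq dm6 sequence. They were put into the first matching class: within 500 bp of a TSS, 5′ or coding or 3′ exon part, other exon, intron, intergenic. GC share was taken over 100 bp and words over 50 bp to each side of the summit, words on both strands with overlaps allowed. Two-sided Fisher's exact tests compared shares, with Benjamini-Hochberg adjustment over each family of classes, arms, motifs, words or positions, at 0.05. Banded values come from Mantel-Haenszel tests over 10 bands of equal size (5 by 5 for GC share and signal together), whose p is a chi-square approximation. With 1 group of 2 replicates there was no comparison between groups and no test over samples.

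Named genes are those nearest to the 15 strongest members, up to 3 per list by signal, and all chromosome 4 members, the last a choice made with their values in view. Among the symbols of the gene lists, 3 were not found and 1 was matched under another name. The functions were tested on simulated data: with no planted difference 0 words were called, 20 of 20 planted words were recovered, and a shift in GC share alone gave 271 called words without bands and 0 with them. In the simulation the bands and the words came from the same window of independently drawn bases. In the data the GC share came from a wider window than the words. The simulation therefore does not show how fully the bands remove composition in the data. The packages scipy 1.17.1, pandas 2.3.3 and numpy 2.4.6 under Python 3.11.15 did the calculations, and matplotlib 3.10.9 drew the figures.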

Additional observations from a re-analysis of the deposited data

How the results depend on the processing

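The number of replicate 2 only peaks depends on the definition: 887 (40.2%) with the shorter lists (0.5 times the main length in each replicate), 2856 (32.4%) with the longer lists (2 times), and 149 when no replicate 1 candidate may overlap. Going down the replicate 2 list until as many peaks without overlap were kept as the strong list holds reached rank 8210, and the count is then fixed by construction. It was 2243 with a reciprocal overlap of 50%, 1634 with summits within 250 bp, and 1469 of 3999 with 1 summit per kb.

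Against shared peaks, the promoter odds ratio of 0.854 was 1.06 with the shorter lists and 1.15 with the 149, and 0.872, 0.857 and 0.901 within signal, GC and combined bands, none past the threshold. With the longer lists it was 0.613 (Fisher's exact, adjusted p = 6.41e-26) and with a promoter window of 250 bp 0.779 (Fisher's exact, adjusted p = 4.91e-04). The X odds ratio of 1.32 was 1.32 (Fisher's exact, adjusted p = 0.0756) with the shorter lists and 1.20 with the 149. The 2 higher and 5 lower motifs became 0 and 1 within GC bands and within combined bands, and 0 and 0 with the 149. The lower count was 9 with a reciprocal overlap and 3 with 25 bp to each side of the summit. The words called, 220 higher and 294 lower, became 1 and 4 within GC bands, 7 and 6 within combined bands, 16 and 0 with the 149, and 107 and 114 with 25 bp. Signal bands gave 447 lower. Against replicate 1 only peaks, GC bands left 0 and 0. The upstream odds ratio against shared summits was 0.870 and that for 100 bp 0.922 within GC bands. Among the main results, 59 values under an alternative kept direction and side of the threshold or stayed within 1.5 times the main count, while 22 counts moved further, 6 values lost the call and 3 turned direction. The cause of the changes was not tested. The 149, the shorter lists and the 25 bp windows hold fewer peaks or bases.

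Classes and arms that turned direction, none of them called under the alternative, were other exons (0.593), introns (0.979) and chromosome 4 (0.991) with the shorter lists, 3′ exon parts (1.21) and 2L (0.976) with the longer lists, 2L (0.955) and chromosome 4 (0.790) with a reciprocal overlap, 3′ exon parts (2.31), introns (0.716) and 2L (0.647) with the 149, intergenic summits (0.998) within combined bands, 3′ exon parts (1.05) with a promoter window of 250 bp and 5′ exon parts (1.39) with 1000 bp. Calls gained beside those given with the classes and arms were other exons (1.95) with a promoter window of 250 bp. GC bands and combined bands were chosen after seeing the data.

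No paired analysis was possible because there is 1 group, and leaving out a replicate gives no value because the peaks are defined from both.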
